A study of Mus musculus with 4 samples.

Results

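Interferon-stimulated genes were followed in CD8 T cells that had infiltrated mouse hepatocellular carcinoma, the common cancer of liver cells. Cells of wild-type genotype had been separated by flow cytometric sorting by JAML, with 2 JAML-positive and 2 JAML-negative libraries in all, lettered A and B within a group. The labels give no treatment, strain, age or tumour model and leave unsaid whether the letters stand for separate mice, pools or sorts, so p-values measure only how far these libraries lie apart, a spread that may be technical. JAML is a receptor of the immunoglobulin superfamily on the surface of leukocytes. The set holds 36 named genes, which are textbook targets of type I interferon and the guanylate-binding proteins (GBP) and immunity-related GTPases (IRG) induced by interferon gamma. They were found by symbol in a table of 14934 genes, where 34 had a row. Mx1 and Mx2 were not analysed here. All 34 passed the filter on low counts and were among the 11563 genes tested. Ifi44 passed it through its JAML-positive libraries alone, so it had to differ. The comparison asks how JAML-positive and JAML-negative cells of the tumour differ in gene expression.

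Type I interferons bind the receptor of IFNAR1 and IFNAR2, which activates the kinases JAK1 and TYK2. A complex that holds STAT2 and IRF9 then binds the interferon-stimulated response element (ISRE) in promoters. Interferon gamma, which activated CD8 T cells themselves secrete, signals through IFNGR1 and IFNGR2, and many of its target promoters hold the gamma-activated sequence (GAS). The induced proteins sense viral RNA, cut or block it, and attack the vacuoles of intracellular pathogens. Tumour-infiltrating T cells are exposed to both kinds of interferon.

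The promoter letters of the set are shown first, because they do not depend on the counts. Members were chosen as known interferon targets, so a high share of matches could be foreseen and is no independent result. RefSeq promoter windows on GRCm38.p6, from 250 bases before to 50 bases after a start site, were matched by gene identifier for 27 of the 34 genes. Gbp4, Ifi27l2a, Oas2, Parp14, Rtp4, Usp18 and Zbp1 had no window. The ISRE core was searched as GAAA, any 2 bases and GAAA again, with TTTC, any 2 bases and TTTC for the other strand, and GAS as TTC, any 3 bases and GAA, which is its own reverse complement. An ISRE match lay in a window of 17 of 27 members (63.0%), against 3.94% of the 9267 tested genes with a window. A GAS match lay in a window of 9 of 27 members (33.3%), against 8.28% of those genes. Of the type I targets 11 of 20 held an ISRE match and 5 of 20 a GAS match, and of the class of Irf1, GBP and IRG genes 6 of 7 and 4 of 7. A match describes the letters of the window and is not evidence of a bound factor. Irf1, the most abundant gene of its class, is shown for its GAS match. Isg15, Irgm1 and Gbp7 are shown for tandem or combined matches and were chosen after the matches were seen. Each line gives the 250 bases before the start site, 5′ to 3′ on the strand of the gene, with matches in capitals.
Isg15: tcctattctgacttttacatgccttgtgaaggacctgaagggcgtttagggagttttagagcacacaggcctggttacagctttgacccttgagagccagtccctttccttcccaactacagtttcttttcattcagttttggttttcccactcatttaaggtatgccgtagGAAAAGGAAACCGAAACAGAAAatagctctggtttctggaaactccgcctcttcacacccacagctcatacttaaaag
Irgm1: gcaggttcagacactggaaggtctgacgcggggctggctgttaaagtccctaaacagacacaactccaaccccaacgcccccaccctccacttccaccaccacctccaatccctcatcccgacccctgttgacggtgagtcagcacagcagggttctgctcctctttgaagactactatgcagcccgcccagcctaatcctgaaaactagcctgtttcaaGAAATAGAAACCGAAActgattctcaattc
Gbp7: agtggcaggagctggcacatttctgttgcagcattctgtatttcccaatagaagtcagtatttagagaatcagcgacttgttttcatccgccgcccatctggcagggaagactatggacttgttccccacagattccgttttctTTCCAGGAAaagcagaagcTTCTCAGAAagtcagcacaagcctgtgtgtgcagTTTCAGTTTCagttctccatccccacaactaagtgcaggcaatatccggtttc
Irf1: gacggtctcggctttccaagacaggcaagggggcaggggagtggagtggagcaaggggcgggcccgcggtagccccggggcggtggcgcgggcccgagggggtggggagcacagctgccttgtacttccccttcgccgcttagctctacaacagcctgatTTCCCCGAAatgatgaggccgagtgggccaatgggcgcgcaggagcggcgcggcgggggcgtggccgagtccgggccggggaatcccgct
The stretches lie at chr4:156200819-156201068 (minus strand) for Isg15, chr11:48871421-48871670 (minus strand) for Irgm1, chr3:142530086-142530335 (plus strand) for Gbp7 and chr11:53769764-53770013 (plus strand) for Irf1. In Isg15 the capitals are 3 ISRE matches that overlap each other, from 78 to 57 bases before the start site. In Irgm1 they are 2 overlapping ISRE matches close to the start site, from 30 to 15 bases before it. Gbp7 holds 2 GAS matches followed by 1 ISRE match, and the upstream window of Irf1 holds 1 GAS match and no ISRE match. Ifi44, Irf7, Irf9, Oasl1, Oasl2 and Xaf1 had a window with neither. Ifih1, the member with the smallest p among those with a negative fold change, holds its ISRE match (GAAACAGAAA) from 33 to 42 bases after the start site.

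Library totals were 27530187 to 30569728 counts. The labelled cell type was checked with T cell genes: 8 of 9 had a row, and their summed level was 3369 to 3849 CPM (counts per 1000000 counts of the scaled library) in the 4 libraries. Pairs of values are given as replicate A, then replicate B. Cd8a, the CD8 co-receptor, stood at 1024 and 1113 CPM in the JAML-negative pair and 1044 and 1052 CPM in the JAML-positive pair. Cd4, a helper T cell gene that is part of the sum, was at 124 and 120 CPM against 134 and 173 CPM. Its log2 fold change of 0.33 (SE 0.27) did not pass (edgeR adjusted p = 0.780). Jaml itself, the gene of the sort marker, was at 131 and 117 CPM in the JAML-negative pair and 138 and 147 CPM in the JAML-positive pair. The groups did not overlap, but with a log2 fold change of 0.20 (SE 0.26) the difference did not pass in edgeR (adjusted p = 0.881), so the directions given here rest on the labels. JAML-positive replicate A stood apart, with 12.5% of its counts in ribosomal protein genes against 7.72% to 8.63% in the others.

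The interferon-stimulated genes were present in both groups, and no member passed the edgeR test. Summed over the 34 genes, the level was 2214 and 2388 CPM in the JAML-negative pair and 2131 and 2024 CPM in the JAML-positive pair, so both JAML-positive libraries lay below both JAML-negative ones. Abundant genes such as Irf1, Gbp4 and Parp14 weigh most in that sum, so it does not describe each member. In sorted bulk cells, fewer cells of a type and less RNA per cell cannot be told apart. Fold changes are given as log2 of JAML-positive over JAML-negative. Values were above 0 for 16 members (47.1%, beside 50.7% of all genes) and below 0 for 18, with a median of -0.08, beside a median of 0.01 over all genes tested. Without JAML-positive replicate A the median was -0.16, and again 0 members passed. The edgeR quasi-likelihood test with Benjamini-Hochberg adjustment over all genes passed 0 of 34 members, where the share over all genes was 0%. At an unadjusted p under 0.05 there was 1 member, Ifi27l2a, beside 7.65% of all genes. DESeq2 passed 1 member, Ifi44, beside 5.59% of all genes, and limma-voom passed 0. DESeq2 was run without the filter on low counts. Its share over all genes, here and below, is therefore of 14934 genes and includes low-count genes that edgeR did not test. Groups are said not to overlap where both libraries of one lie above both of the other. That held with higher JAML-positive values for 4 members (11.8%), beside 20.3% of all genes, and with lower values for 9 members (26.5%), beside 18.2%. The 4 include Ifi44, whose direction was fixed by the filter. Read against those backgrounds, neither count sets the members apart.

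**Figure D1:**
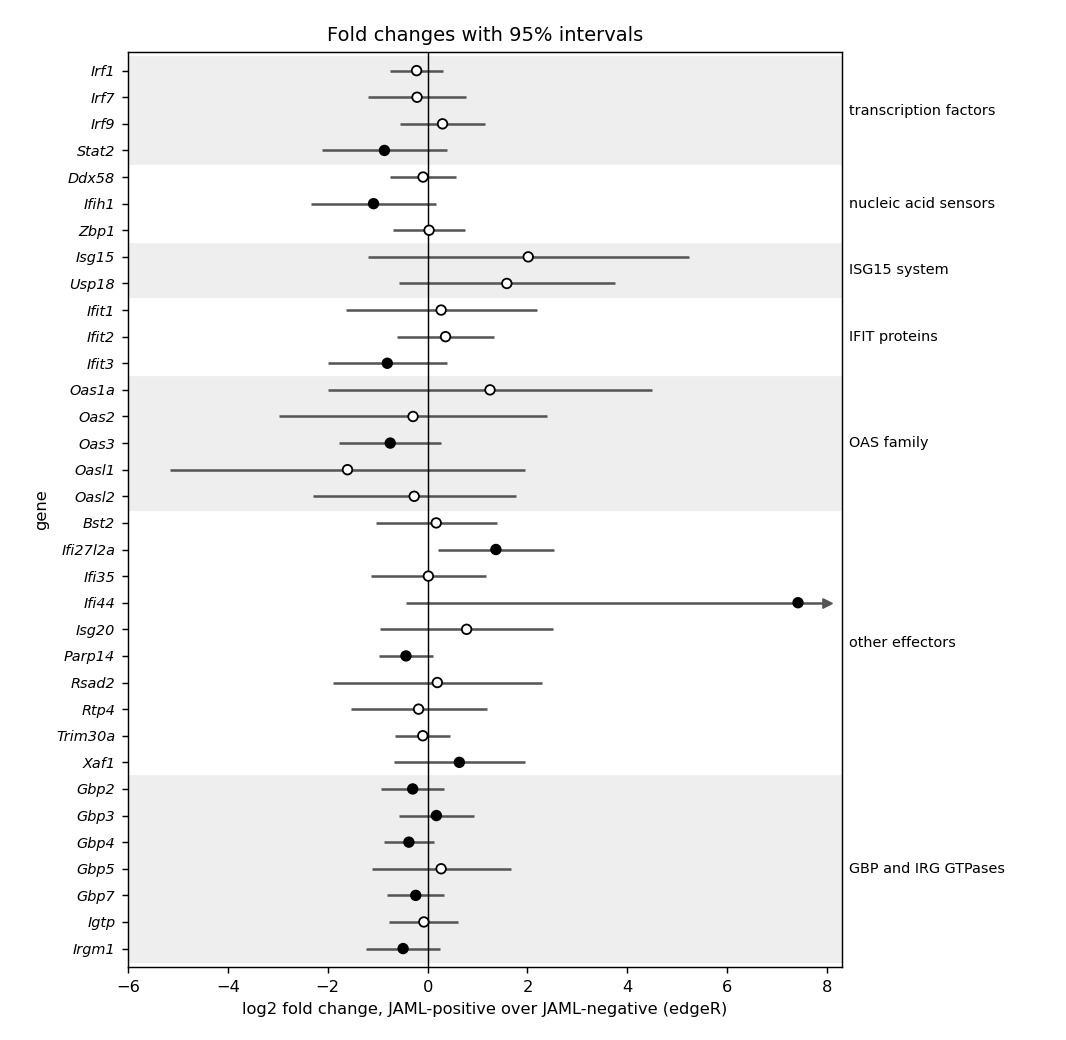
Log2 fold change of each of the 34 genes, JAML-positive over JAML-negative, from edgeR, with its 95% interval as a line, ordered by role. Filled points are genes whose groups do not overlap, the arrow marks an interval that runs past the axis, and the interval of Ifi27l2a alone excludes 0 (unadjusted).

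The first steps of the pathway were read from lists of other genes. Of 19 genes for interferons, receptors and signal transducers 12 had a row and 10 were tested. With edgeR 0 passed and 0 had an unadjusted p under 0.05, and with DESeq2 1 of 12 passed, Jak1 (8.33%, beside 5.59% of all genes). Ifng, which encodes interferon gamma, was at 124 and 106 CPM in the JAML-negative pair and 173 and 87.5 CPM in the JAML-positive pair, and its groups overlapped. Ifnar1 was at 188 and 194 CPM in the JAML-negative pair and 87.9 and 180 CPM in the JAML-positive pair, a log2 fold change of -0.50 (SE 0.32) in which JAML-positive replicate A was the low library. For Ifngr1, a subunit of the interferon gamma receptor, 770 and 837 CPM stood against 693 and 623 CPM (-0.29, SE 0.20). Jak1 was at 1544 and 1574 CPM against 1147 and 1252 CPM (-0.38, SE 0.19). Both of these genes had groups that did not overlap, and neither passed in edgeR (adjusted p = 0.714 and 0.609). Among 15 negative regulators of the pathway, 0 passed with edgeR or DESeq2, 0 had an unadjusted p under 0.05, 8 had values above 0 and 7 below. Among 17 tested nucleic acid sensors and adaptors 0 passed with edgeR or DESeq2, and Aim2, a sensor of cytosolic DNA, was the only one with an unadjusted p under 0.05, at 79.4 and 68.1 CPM against 101 and 148 CPM (0.77, SE 0.32, edgeR adjusted p = 0.609).

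The transcription factors of the set are Stat2 and Irf9, partners in the ISRE-binding complex, Irf7, which amplifies the type I response, and Irf1, an early target of interferon gamma. Irf1 (Entrez 16362, chromosome 11, 53770014 to 53778374) had the highest mean level per length of the whole set in JAML-negative cells, 182 CPM per kilobase of transcript. It was also highest in JAML-positive cells, at 156 CPM per kilobase, but there Ifi27l2a was close, at 152 CPM per kilobase. Irf1 was at 326 and 452 CPM in the JAML-negative pair and 379 and 289 CPM in the JAML-positive pair. The libraries of the groups interleaved, and the log2 fold change came to -0.22 (SE 0.24, edgeR adjusted p = 0.851), with a 95% interval from 0.597-fold to 1.23-fold. Stat2 (chromosome 10, 128270498 to 128292853) was at 46.0 and 38.2 CPM in the JAML-negative pair and 36.7 and 11.3 CPM in the JAML-positive pair. Only JAML-positive replicate B lay far from the others, and the log2 fold change of -0.86 (SE 0.57) did not pass (edgeR adjusted p = 0.709). Irf9 had overlapping groups, at 52.9 and 52.3 CPM against 50.1 and 78.1 CPM (0.30, SE 0.39, edgeR adjusted p = 0.878). Irf7 had its highest and its lowest value in the same group, 74.0 and 30.8 CPM in JAML-positive replicates A and B, with 62.3 and 56.4 CPM in JAML-negative cells.

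**Figure D2:**
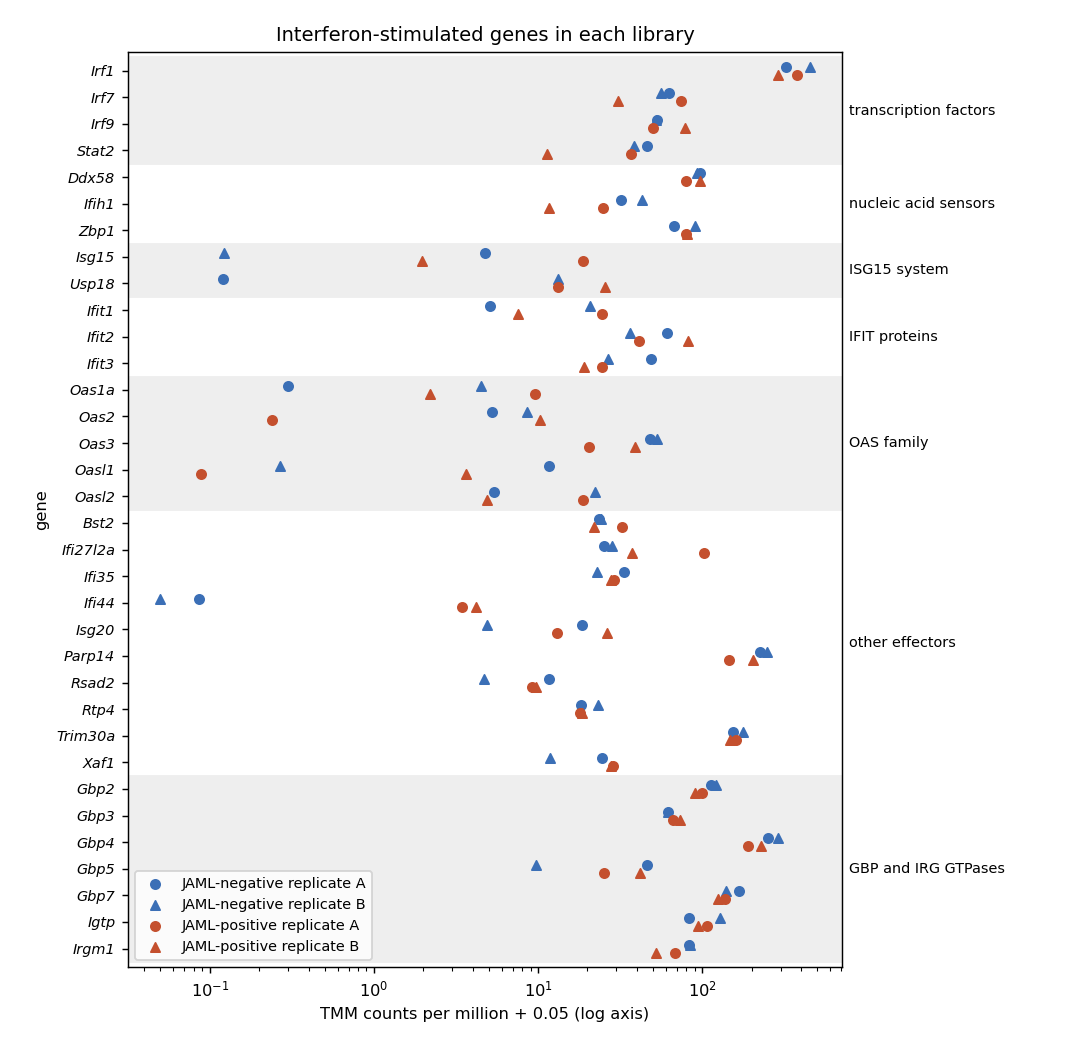
TMM-scaled CPM plus 0.05, on a log axis, of each gene in each library, with JAML-negative in blue and JAML-positive in red, circles for replicate A and triangles for replicate B. Genes near 100 CPM have their 4 points close together, while Isg15, Usp18, Oas1a, Oas2 and Oasl1 have libraries of a group far apart.

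Among the cytosolic sensors, Ddx58 encodes RIG-I and Ifih1 encodes MDA5, both receptors of viral RNA, and Zbp1 binds Z-form nucleic acids and can trigger cell death. Zbp1 was at 67.7 and 90.4 CPM in the JAML-negative pair and 80.2 and 81.1 CPM in the JAML-positive pair. The JAML-positive pair lay inside the JAML-negative pair, and the log2 fold change was 0.03 (SE 0.33, 95% interval 0.621-fold to 1.68-fold). Ddx58 also had overlapping groups, at 96.5 and 92.6 CPM against 79.4 and 97.5 CPM (-0.09, SE 0.31). Ifih1 (Entrez 71586, chromosome 2, 62595618 to 62646255) was lower in both JAML-positive libraries, at 24.7 and 11.5 CPM in replicates A and B against 32.0 and 43.0 CPM in JAML-negative cells. Its log2 fold change of -1.08 (SE 0.58) had the smallest p of the members with a negative value and did not pass (edgeR adjusted p = 0.617).

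Isg15, a ubiquitin-like protein that is attached to other proteins during the interferon response, and Usp18, the protease that removes it and that also damps the type I receptor, had uneven libraries. Isg15 (Entrez 100038882, chromosome 4, 156199424 to 156200818) had 132 and 2 counts in the JAML-negative pair and 496 and 60 counts in the JAML-positive pair. Replicate A was the high library in both groups. Usp18 (chromosome 6, 121245906 to 121270917) had 2 and 364 counts in the JAML-negative pair and 349 and 796 counts in the JAML-positive pair, and here JAML-negative replicate A was the low one. The log2 fold changes of Isg15 (2.02, SE 1.49) and Usp18 (1.59, SE 0.995) did not pass (edgeR adjusted p = 0.748 and 0.687), and the groups of both overlapped. Without JAML-positive replicate A the log2 fold change of Isg15 was -0.32, and without JAML-negative replicate A it was 6.98. GENCODE exons of Usp18 share 4.44% of their bases with Gm44148 on the opposite strand, and the strand setting of the counting is not stated.

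The IFIT proteins bind viral RNA, and their genes lie on chromosome 19. Ifit1 was at 5.03 and 20.6 CPM in the JAML-negative pair and 24.4 and 7.48 CPM in the JAML-positive pair, so the high library was B in one group and A in the other. Ifit2 ranged from 36.1 CPM in JAML-negative replicate B to 82.2 CPM in JAML-positive replicate B, with overlapping groups. Ifit3 was lower in both JAML-positive libraries, at 24.5 and 18.9 CPM against 48.6 and 26.6 CPM (-0.81, SE 0.55, edgeR adjusted p = 0.717). None of the 3 passed.

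The OAS enzymes make the second messenger that activates RNase L, and the OASL proteins are their relatives. Oas3 (chromosome 5, 120753098 to 120777684) had the smallest standard error of the family, at 48.3 and 53.3 CPM in the JAML-negative pair and 20.3 and 39.0 CPM in the JAML-positive pair (-0.75, SE 0.47, edgeR adjusted p = 0.689). Its groups did not overlap. The other members of the family had fewer reads and larger gaps. Oas1a had 7 and 123 counts in the JAML-negative pair and 252 and 67 counts in the JAML-positive pair. Oas2 had 146 and 234 counts in the JAML-negative pair and 5 and 318 counts in the JAML-positive pair. Oasl1 had 329 and 6 counts, then 1 and 113 counts, so that each group had 1 library near 0. Oasl2 was at 5.34 and 22.1 CPM against 18.8 and 4.83 CPM. The standard errors of Oas1a, Oas2 and Oasl1 were 1.51, 1.24 and 1.65 on the log2 scale, and a change in these genes was not detectable at this spread.

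Such gaps between the libraries of a group were found for 5 of 34 members (14.7%) by a limit of 10-fold in CPM: Isg15, Usp18, Oas1a, Oas2 and Oasl1. Over all genes tested 17.9% passed the same limit in a group. It was passed by 4 members in JAML-negative (13.7% of all genes) and by 2 in JAML-positive libraries (9.99%). Standard errors on the log2 scale ran from 0.96 to 3.59 for the 6 members with a mean under 10 CPM, from 0.31 to 0.99 for 21 members between 10 and 100 CPM, and from 0.23 to 0.32 for 7 members above 100 CPM. Their medians over all genes were 1.55, 0.52 and 0.26 in those ranges.

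**Figure D3:**
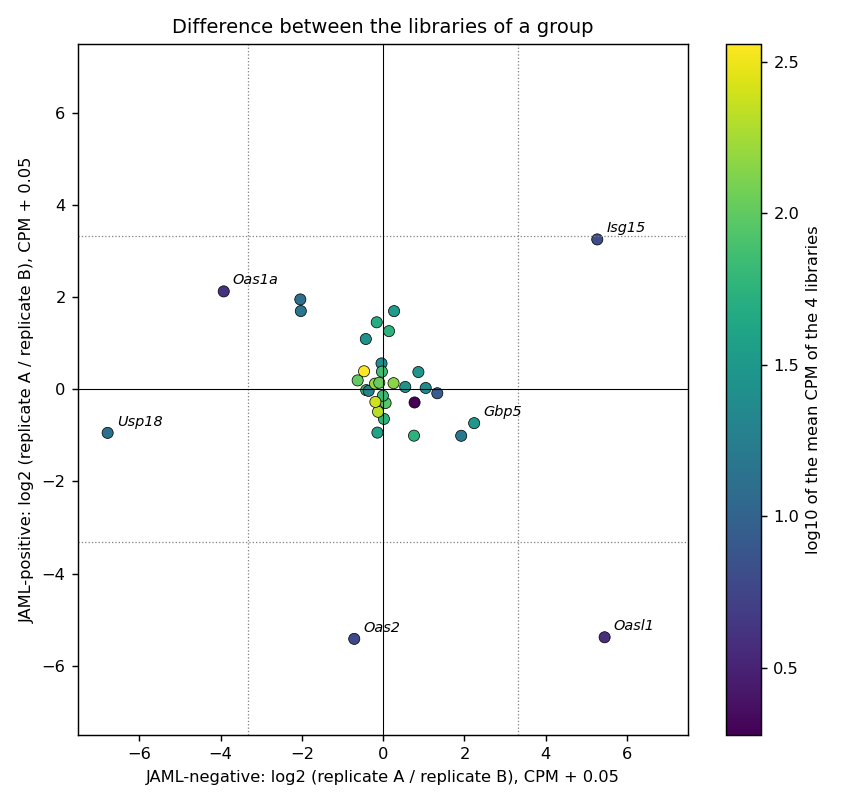
Difference between replicates A and B, as log2 of the ratio of CPM plus 0.05, in JAML-negative (horizontal) and JAML-positive libraries (vertical), 1 point per gene, coloured by mean level, with dotted lines at 10-fold. Most genes lie near the centre, and the 5 genes beyond a dotted line have mean levels from 3.88 to 13.0 CPM.

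Of the other effectors, Ifi27l2a, a small hydrophobic protein of the ISG12 family, had the smallest p of the set. Ifi27l2a (Entrez 76933, chromosome 12, 103433873 to 103443680) was at 25.2 and 28.1 CPM in the JAML-negative pair and 103 and 37.5 CPM in the JAML-positive pair. Both JAML-positive libraries were higher, replicate A, the library with the high share of ribosomal protein counts, by far the more, and the part of that share was not tested. The log2 fold change was 1.37 (SE 0.53, unadjusted p = 0.0249, edgeR adjusted p = 0.609). It was 0.49 without JAML-positive replicate A and 0.86 with trends in transcript length and GC content removed, and over the alternatives its adjusted p ran from 0.0768 to 0.882. Ifi44, a cytosolic antiviral protein, had 1 and 0 counts in the JAML-negative pair and 90 and 130 counts in the JAML-positive pair (3.40 and 4.16 CPM). The ratio of summed counts was 213, with an exact 95% interval from 37.8 to 8437 that covers counting error only. Ifi44 passed the filter through its JAML-positive libraries alone, so its direction was fixed in the fits that used the filter. DESeq2 was run without it, but the JAML-negative counts were near 0 there too. Nothing is read from the ratio or tests of Ifi44. DESeq2 passed it (adjusted p = 0.0408) and edgeR did not (log2 fold change 7.42, SE 3.59, adjusted p = 0.609), and over all the alternatives its adjusted p ran from 0.0408 to 0.881. Xaf1, a proapoptotic protein, was at 24.4 and 11.8 CPM against 28.5 and 27.9 CPM (0.64, SE 0.60).

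Parp14, an ADP-ribosyltransferase, and Trim30a, a ubiquitin ligase, were the most abundant type I targets in CPM. Parp14 (Entrez 547253, chromosome 16, 35831892 to 35871518) was at 226 and 247 CPM in the JAML-negative pair and 145 and 204 CPM in the JAML-positive pair. The groups did not overlap, and the log2 fold change of -0.43 (SE 0.25) did not pass (edgeR adjusted p = 0.646). Trim30a had overlapping groups, at 153 and 176 CPM against 161 and 148 CPM (-0.10, SE 0.25), with a 95% interval from 0.640-fold to 1.37-fold. Bst2, or tetherin, which holds budding viruses at the cell surface, was at 23.4 and 24.1 CPM against 32.3 and 21.8 CPM (0.17, SE 0.56). Isg20, an exonuclease, ranged from 4.83 to 26.3 CPM, and Rsad2, which encodes viperin, from 4.61 to 11.7 CPM, both with overlapping groups. For Rtp4 the log2 fold change was -0.18, with SE 0.63, and for Ifi35 it was 0.02, with SE 0.53.

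The GBP and IRG GTPases, which assemble on pathogen vacuoles, were measured more precisely. Of the 7, 5 had log2 fold changes below 0 and 2 above 0, 0 passed, and 4 (57.1%) had lower JAML-positive values in groups that did not overlap, beside 18.2% of all genes. That these few genes differ from other genes was not tested. Gbp2, Gbp3, Gbp5 and Gbp7 lie together on chromosome 3, and Gbp4 lies on chromosome 5. Gbp4 (Entrez 17472, 105115767 to 105139586) was at 253 and 289 CPM in the JAML-negative pair and 189 and 228 CPM in the JAML-positive pair (-0.37, SE 0.23, edgeR adjusted p = 0.680). Gbp2 was at 113 and 121 CPM against 100.1 and 90.6 CPM (-0.30, SE 0.29). Gbp7, whose promoter with both motifs is printed above, was at 167 and 140 CPM against 137 and 125 CPM (-0.24, SE 0.26). Irgm1, a regulator of the IRG family with 2 ISRE matches, was at 82.8 and 84.6 CPM against 67.9 and 51.9 CPM (-0.49, SE 0.34, edgeR adjusted p = 0.729). These 4 genes had narrow gaps between libraries and small differences between groups.

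Gbp3 and Gbp5 had values on the other side of 0. Gbp3 was at 61.9 and 62.2 CPM in the JAML-negative pair and 66.6 and 73.3 CPM in the JAML-positive pair (0.18, SE 0.35). Gbp5 ranged from 9.70 CPM in JAML-negative replicate B to 45.9 CPM in replicate A of the same group, with 25.0 and 41.6 CPM in JAML-positive cells. Igtp was at 83.0 and 128 CPM against 107 and 93.7 CPM (-0.07, SE 0.32), and its exons share 8.01% of their bases with Irgm2 on the same strand. Irf9 shares 2.28% with Rnf31 on the same strand, Irf7 shares 1.19% with Phrf1 on the opposite strand, and Gbp4 shares under 1% of its exonic bases with Gbp8 and with Gbp9. With Irf1, the 8 genes had a median log2 fold change of -0.23, and the 26 type I targets had a median of 0.02. The type I median was -0.11 with length and GC trends removed and -0.12 without JAML-positive replicate A, and that the 2 medians differ was not tested. Counts of GBP, IFIT, OAS and Trim30 genes are uncertain where reads match several members of a family.

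A wider list of 71 other interferon-induced genes, of which 66 had a row and 62 were tested, gave 0 genes past the edgeR test and 7 of 66 past DESeq2 (10.6%, beside 5.59% of all genes). Their median was -0.17, with 23 values above 0 and 39 below. An unadjusted p under 0.05 was found for 8 of 62 genes, 2 higher (3.23%, beside 4.32% of all genes) and 6 lower (9.68%, beside 3.34%). That the list differs from other genes was not tested. Trim12a, a relative of Trim30a, was at 253 and 269 CPM in the JAML-negative pair and 142 and 150 CPM in the JAML-positive pair (-0.84, SE 0.23). Ifi213 and Ifi208, of the family of DNA-binding p200 proteins, differed by -0.80 (SE 0.25) and -0.68 (SE 0.27) on the log2 scale. Nlrc5, the transactivator of MHC class I genes, was at 360 and 404 CPM against 207 and 287 CPM (-0.62, SE 0.23). The higher pair was Ifitm1, a membrane protein that blocks viral entry, at 10.9 and 5.67 CPM against 43.2 and 26.2 CPM (2.04, SE 0.70), and Oas1c, of the OAS family, at 16.6 and 3.71 CPM against 48.3 and 28.9 CPM (1.90, SE 0.70). All 6 had groups that did not overlap and an edgeR adjusted p of 0.609.

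**Figure D4:**
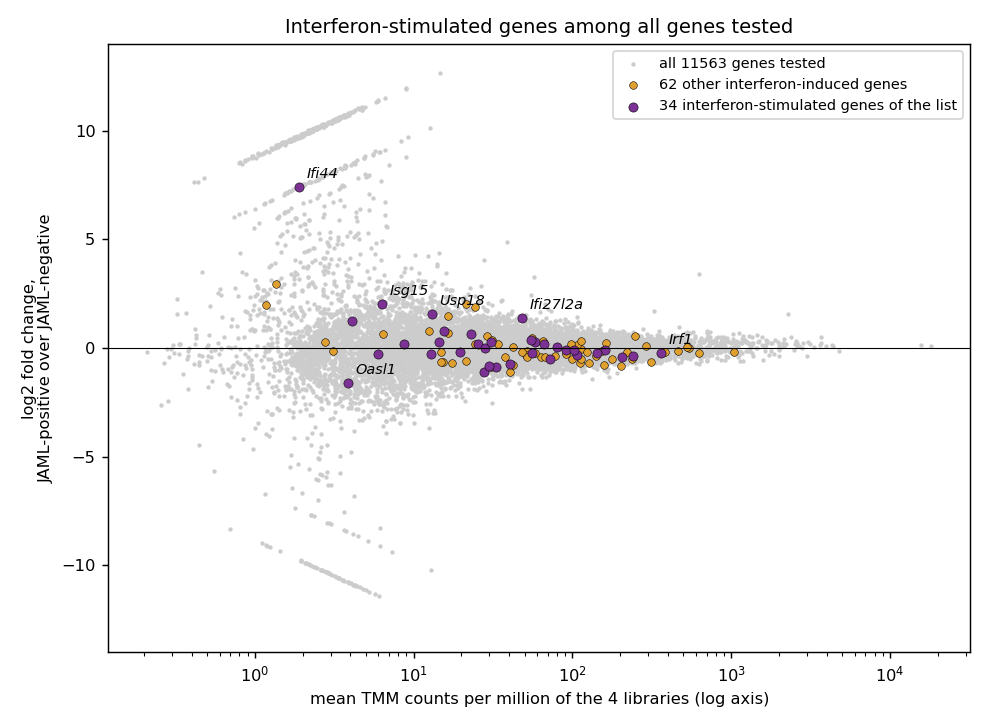
Log2 fold change against the mean CPM of the 4 libraries (log axis) for the 11563 genes tested in grey, the 34 genes of the set in purple and 62 other interferon-induced genes in orange. Ifi44 is the outlying purple point at 7.42, and the abundant members lie close to 0.

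Markers of some other cells had different summed levels in the groups, and such cells can transcribe members of the set. Plasmacytoid dendritic cells hold high Irf7 and Bst2 without stimulation. Of 15 of their markers 13 had a row, with a summed level of 228 and 231 CPM in the JAML-negative pair and 406 and 508 CPM in the JAML-positive pair. Without Runx2, the most abundant of them, the sums were 104 and 117 CPM against 324 and 320 CPM. Irf8 (30.9 and 48.6 CPM), Ccr9 (36.0 and 38.9 CPM) and Pacsin1 (25.7 and 24.9 CPM) made up most of those JAML-negative sums. In the JAML-positive pair they were at 80.3 and 101 CPM, 79.7 and 50.8 CPM, and 37.4 and 53.0 CPM. With edgeR 0 of the 11 tested passed and 6 had an unadjusted p under 0.05, and DESeq2 passed 5 of 13 (38.5%, beside 5.59% of all genes). Cd300c, Ly6d and Spib, with at most 1 count in a JAML-negative library, passed the edgeR filter through the JAML-positive libraries alone. Their direction was therefore fixed in edgeR. DESeq2 was run without that filter, but nothing is read from the number of markers passing either test. Siglech was at 5.70 and 0.472 CPM against 56.4 and 48.8 CPM, and Smim5 had counts in JAML-positive replicate A alone. B and plasma cell markers, 11 of 12 with a row, summed to 19.7 and 22.7 CPM against 148 and 97.3 CPM, and without Jchain to 15.1 and 22.4 CPM against 49.2 and 46.2 CPM. Fcer2a of that list was on the other side, with 248 and 125 counts against 0 and 12, and Pax5 and Cd79a had at most 4 counts in any library. The 20 phagocyte and conventional dendritic cell markers summed to 117 and 130 CPM against 256 and 199 CPM, and without Mpeg1 to 110 and 116 CPM against 137 and 110 CPM. Of 17 tested 9 had values above 0 and 8 below, with a median log2 fold change of 0.03. Helper and regulatory T cell markers, Cd4 among them, summed to 279 and 308 CPM against 344 and 417 CPM. Without Cd4 the sums were 155 and 188 CPM against 210 and 244 CPM. Natural killer cell markers summed to 227 and 197 CPM against 182 CPM in both JAML-positive libraries. Hepatocyte markers summed to 31.5 and 4.25 CPM against 14.5 and 14.9 CPM. Of the 7 helper and regulatory markers 6 had values above 0, and Ikzf2 was below (-0.89, SE 0.36). Of the 5 natural killer cell markers 3 had values above 0 and 2 below, though their sum was lower. Bst2 and Irf7 had overlapping groups, as given above, with standard errors of 0.56 and 0.45, and that overlap does not show what these cells contributed. The part of all these other cells in the values of Ifi44, Ifi27l2a, Irf7, Bst2 and the other members was not tested.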

How the data were processed

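One table of raw read counts was deposited, with 1 whole number for each gene and library. RNA came from a column kit and was made into SMARTER mRNA-Seq libraries, per the labels' protocols. GRCm38 and mm10 are the builds that the submitters' processing notes name. Which aligner, counter and strand setting served is not given in the sources used here.

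Genes were kept by filterByExpr (minimum count 10) and fitted with edgeR 4.0.16 in R 4.3.3: TMM scaling, robust dispersions, the quasi-likelihood test with adjusted deviances, no covariate, and Benjamini-Hochberg adjustment over all genes (threshold 0.05). SE, the standard error, was taken from the log2 fold change and its F statistic (size over root F), and 95% intervals use a t quantile. CPM are on the TMM scale. Transcript length is that of the longest coding GENCODE M21 transcript. Alternatives used DESeq2 1.42.0, limma 3.58.1, other filters and scalings, and 1 library left out. Sequenced PCR copies are not independent molecules, so counting intervals cover counting error only.

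Members and lists were chosen with earlier results of these data known. Values per library are given for members with an unadjusted p under 0.05, for the 4 most abundant of each class and for those with libraries of a group over 10-fold apart. Others so given were chosen after their values were seen. Of the other lists, genes with an unadjusted p under 0.05 and at least 10 CPM in a group were eligible for naming.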

Additional observations from a re-analysis of the deposited data

How the results depend on the processing

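With edgeR 0 members passed in any alternative, and with DESeq2 1 did. Over all genes, 835 passed with DESeq2, 2 with no filter on low counts, and 0 to 11 with 1 library left out (11 without JAML-positive replicate B). The letters A and B are not said to mark a shared animal or day, and the A minus B differences of the groups correlated at 0.02 across 11563 genes. With the replicate block 0 genes and 0 members passed, 620 genes rather than 885 had an unadjusted p under 0.05, and the members' median was -0.08. The older quasi-likelihood fit, chosen after seeing the data, gave 814 such genes.

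The median over members was -0.15 with length and GC trends removed and -0.14 with the block added, and -0.16 to 0.023 with 1 library left out. That of type I targets was -0.035 with at least 5 CPM, -0.11 with the trends removed, -0.11 with the block added, and -0.12 to 0.070 with 1 library left out, and that of Irf1, GBP and IRG genes -0.35 to -0.17. The median over all genes was itself 0.13 without either JAML-negative library. Members that did not overlap numbered 9 to 10 higher and 13 to 15 lower with 1 library left out, beside 31.8% to 36.8% and 28.8% to 32.7% of all genes in the same fits.

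Directions turned in 31 of 438 recomputed member values, for 19 members, none of which passed. With the trends removed, Bst2 was at -0.13, Zbp1 at -0.077 and Ifi35 at -0.16, and with the block added at -0.13, -0.072 and -0.16. With 1 library left out the ranges were -0.32 to 6.98 for Isg15, -0.76 to 1.62 for Ifit1, -0.26 to 0.78 for Ifit2, -0.12 to 4.47 for Oas1a, -5.14 to 0.58 for Oas2, -7.15 to 3.15 for Oasl1, -1.49 to 1.09 for Oasl2, -0.95 to 0.31 for Irf7, -0.076 to 0.57 for Irf9, -0.31 to 1.02 for Rsad2, -0.12 to 0.44 for Bst2, -0.36 to 0.013 for Rtp4, -0.17 to 0.26 for Zbp1, -0.26 to 0.047 for Ddx58, -0.44 to 0.040 for Irf1, -0.44 to 1.79 for Gbp5, -0.36 to 0.28 for Igtp, -0.20 to 0.015 for Trim30a and -0.22 to 0.31 for Ifi35. The cause was not tested. With 1 library in an arm, that library is assumed to vary like the others.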
